A study of Mus musculus with 10 samples.

Results

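The genes described here are 10 antioxidant and thioredoxin genes, read in pancreatic islets of mice labelled knockout or control for Grk5. They were chosen by name: Sod1, Sod2, Cat, Gpx1, Gpx3, Gpx4, Prdx4, Txn1, Txnrd1 and Txnip, and all 10 were present among the 17945 named genes of the deposited table. The knockout mice were C57BL/6, 18 weeks old, and carried the tamoxifen-inducible driver Pdx1-CreER with both Grk5 alleles floxed (Grk5 flox/flox). The control mice were of the same strain and age and carried the floxed alleles without the driver. Each group had 5 RNA sequencing libraries of whole islets. The labels give no animal for a library, so the tests speak only of the spread between libraries, which may be partly technical. Pdx1 is a transcription factor gene active in β cells and in some other islet cells, so cells outside its reach would keep Grk5. Which cells lost or kept the gene was not tested. The sources used here do not say which mice received tamoxifen. The series title ties GRK5, a kinase of G protein-coupled receptors, to β-cell proliferation, and the comparison of the groups asks which islet transcripts differ when it is deleted.

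Superoxide formed in respiration is turned into hydrogen peroxide by the superoxide dismutases, SOD1 in the cytosol and SOD2 in mitochondria. Catalase in peroxisomes, the glutathione peroxidases and the peroxiredoxins then reduce the peroxide, and thioredoxin with its reductase renews many of the oxidised proteins. Pancreatic β cells of rodents are known for a weak defence of this kind, with little catalase and glutathione peroxidase compared with liver, which is one account of their sensitivity to oxidants. TXNIP binds thioredoxin and holds it inactive, and glucose switches its gene on strongly in β cells. No other tissue was measured, so the levels below are set against other genes of the same islets and not against liver.

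The libraries had the make-up of islet preparations. Summed over 8 β-cell markers, normalized counts were 963551 to 1275560 in knockouts and 954800 to 1174240 in controls, a mean of 16.7% of a library. Acinar markers, transcripts of the enzyme-secreting cells around islets, summed to 35905 to 98272 in knockouts and 24452 to 313978 in controls over 20 genes. Lower in knockouts were 18 of the 18 acinar markers tested, 8 of 8 β-cell, 3 of 3 delta-cell and 0 of 5 endothelial markers. The other classes were mixed, with 3 of 5 alpha-cell, 3 of 5 ductal, 2 of 4 stromal, 3 of 6 leukocyte and 3 of 4 erythroid markers lower. Among all genes tested 6142 of 11711 were lower, and none of the markers passed the test. Ptf1a, which defines acinar cells, was listed at 0 in 5 or more libraries. The 5 endothelial markers summed to 1734 to 2352 in knockouts and 1418 to 1784 in controls. The part of other cells in the results below was not tested beyond the values with the acinar level in the model, and in whole islets fewer cells of a type and less RNA per cell cannot be told apart. Grk5 itself did not separate the groups, at 269.8, 129.9, 94.4, 207 and 106 in knockouts 1 to 5, against 197, 165, 387, 332 and 128 in controls 1 to 5, a log2 difference of -0.55 ± 0.42 (SE). Exons were not analysed here, so whether part of the gene was deleted, and whether reads outside that part remain, was not tested. Esr1, the gene of the estrogen receptor that CreER is partly made from, was 1517 to 3177 in knockouts, and in controls 2 and 5 it was 2495 and 773, against at most 10.5 in controls 1, 3 and 4. Controls 2 and 5 therefore go against their label in this respect, and values without them are given below where the direction turns. In controls 2, 3 and 5, 10.2% to 11.9% of values above 0 lay midway between whole multiples of the commonest low value, against 1.20% to 1.44% in the other 7 libraries, so these 3 stand apart in how their values are built. All 5 knockouts are on 1 side of that split, and values within that side, against controls 1 and 4, are given with the other alternatives. The value of 1 read is not known, but the commonest low value was 0.527 normalized counts in knockout 3 and 3.55 in knockout 1, the shallowest library by this measure.

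Promoter sequences of the thioredoxin inhibitor gene and the thioredoxin reductase gene are shown first. Each holds a match of letters to a known type of element that responds to glucose or to oxidants. Both are RefSeq windows on GRCm38.p6, from 250 bases before to 50 after an annotated start, on the plus strand. The Txnrd1 window is at a start inside the gene, whose annotated span begins at 82833951. Capitals mark the match to the carbohydrate response element in Txnip, CACGNG and CNCGNG with 5 bases between them, and to the antioxidant response element TGACNNNGC, here on the other strand, in Txnrd1.
Txnip promoter, chr3:96557707-96558006: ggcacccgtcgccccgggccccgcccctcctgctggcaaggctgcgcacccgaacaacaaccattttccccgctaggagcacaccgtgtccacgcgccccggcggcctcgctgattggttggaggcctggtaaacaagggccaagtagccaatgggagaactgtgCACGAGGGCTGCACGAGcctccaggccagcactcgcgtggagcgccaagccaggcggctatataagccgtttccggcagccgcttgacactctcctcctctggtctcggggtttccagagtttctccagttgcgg
Txnrd1 promoter, chr10:82858956-82859255: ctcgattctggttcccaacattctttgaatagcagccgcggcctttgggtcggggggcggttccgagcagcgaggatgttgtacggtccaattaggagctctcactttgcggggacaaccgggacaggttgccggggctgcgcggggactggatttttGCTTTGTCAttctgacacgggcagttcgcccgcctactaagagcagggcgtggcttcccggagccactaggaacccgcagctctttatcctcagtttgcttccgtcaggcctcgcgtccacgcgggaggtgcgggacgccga
The carbohydrate response element, bound by the glucose-sensing factor ChREBP, was found by a search of both strands and began 85 bases before the Txnip start. It was in 0.365% of 32851 promoter windows and in 1 of the 15 windows of the 10 genes. The antioxidant response element, bound by the oxidant-sensing factor NRF2, was in 12.4% of all windows and in 2 of 15 here, 1 of them Txnrd1 and the other Sod1. That count is close to the share of all windows, so the element does not set these genes apart. A match of letters is a description and does not show that a factor binds there.

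Set in order of normalized count per kilobase of annotated exons, the means of all 10 libraries ran from Gpx3 to Cat. Gpx3, which encodes the secreted plasma-type glutathione peroxidase, stood at 829.5 ± 195 (SD over 10 libraries) and above 99.0% of 15201 protein-coding genes. Txnip followed at 284 ± 121, Gpx1 at 237 ± 59.7, Sod1 at 199 ± 46.4 and Gpx4 at 157 ± 57.0 on the same scale, all above the level of 93.2% of genes or more. Txn1 was at 93.2 ± 45.0, Prdx4 at 37.7 ± 26.7, Sod2 at 33.6 ± 12.4 and Txnrd1 at 32.9 normalized counts per kilobase. Catalase was last, with 24.4 ± 31.2 per kilobase, above 58.4% of genes, where the median gene had 16.9. Its place above the median gene rested on knockout 1, at 107. Without that library Cat averaged 15.3 ± 12.4 per kilobase over 9 libraries, under the median gene at 17.0, and was still last. Within groups the order differed in places. In knockouts Cat averaged 33.4 and Prdx4 33.1, which put Prdx4 last, while in controls Cat was last at 15.5. Txnip averaged 342 per kilobase in knockouts and 226 in controls, where Gpx1, at 231, stood second in its place.

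Most neighbours in that order did not differ beyond their spread. Gpx3 lay above Txnip in 10 of 10 libraries, by 1.61 ± 0.47 on the log2 scale of level (SD), with p = 0.00195 by an exact 2-sided sign-flip permutation test, the smallest that 10 libraries allow, and an adjusted p of 0.0176 over 9 neighbour pairs. None of the other 8 pairs passed, with adjusted p of 0.0527 at the lowest by the exact permutation test. The place of Sod1 depended on the length used. Its annotated exons span 3970 bases, which is also the length of its longest transcript, while its principal transcript has 641. Per kilobase of principal transcript, an alternative chosen after the data were seen, Sod1 came first at 1231 ± 288, with Gpx3 at 943 ± 221 and no difference between them beyond the spread (adjusted p = 0.0659, exact permutation test). On that scale Sod2, at 57.4 ± 21.1, lay above Cat in 9 of 10 libraries (adjusted p = 0.0117, exact permutation test), and Gpx4 above Txn1 in 10 (adjusted p = 0.00879, exact permutation test). Without knockout 4, 3 neighbour pairs differed on the scale of annotated exons, and without control 2 or control 5, 2 did. By the mean of all 10 libraries, catalase was last with each of 3 definitions of gene length. Cat has 2613 bases under each of them, while the other genes keep their length or get shorter. Its last place on annotated exons therefore fixed the other 2 outcomes in advance.

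**Figure D1:**
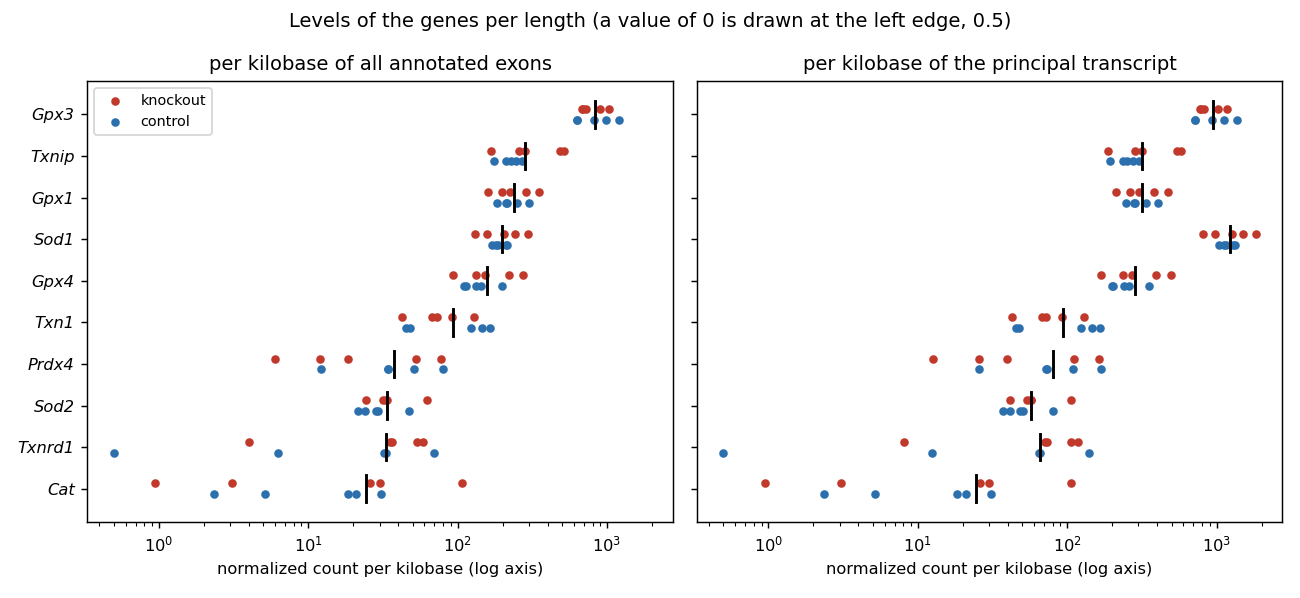
Level of each gene in each library, as normalized count per kilobase on a log axis, with gene length taken as all annotated exons (left) or the principal transcript (right). Red points are knockout and blue points control libraries, and the black bar is the mean of 10 libraries. Gpx3 stands at 829.5 and Cat at 24.4 on the left, and Sod1 moves to 1231 on the right.

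Between knockout and control islets, none of the 10 genes passed the test. With limma on log2(normalized count + 8), 0 of 10 genes had an adjusted p under 0.05, where 0.0% of 11711 genes tested did. At an unadjusted p under 0.05 there were also 0 of 10, where 5.01% of all tested genes reached it (2.36% higher and 2.66% lower). The groups did not fully separate for any of the 10, as they did for 0.863% of all genes. The log2 fold changes, knockout minus control, had a median of 0.15 over the 10 genes, 7 positive and 3 negative, against -0.03 over all genes tested. By the adjusted p-values of the authors' deposited table, 0 of the 10 genes were under 0.05, where 0.136% of the genes with an adjusted p did.

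**Figure D2:**
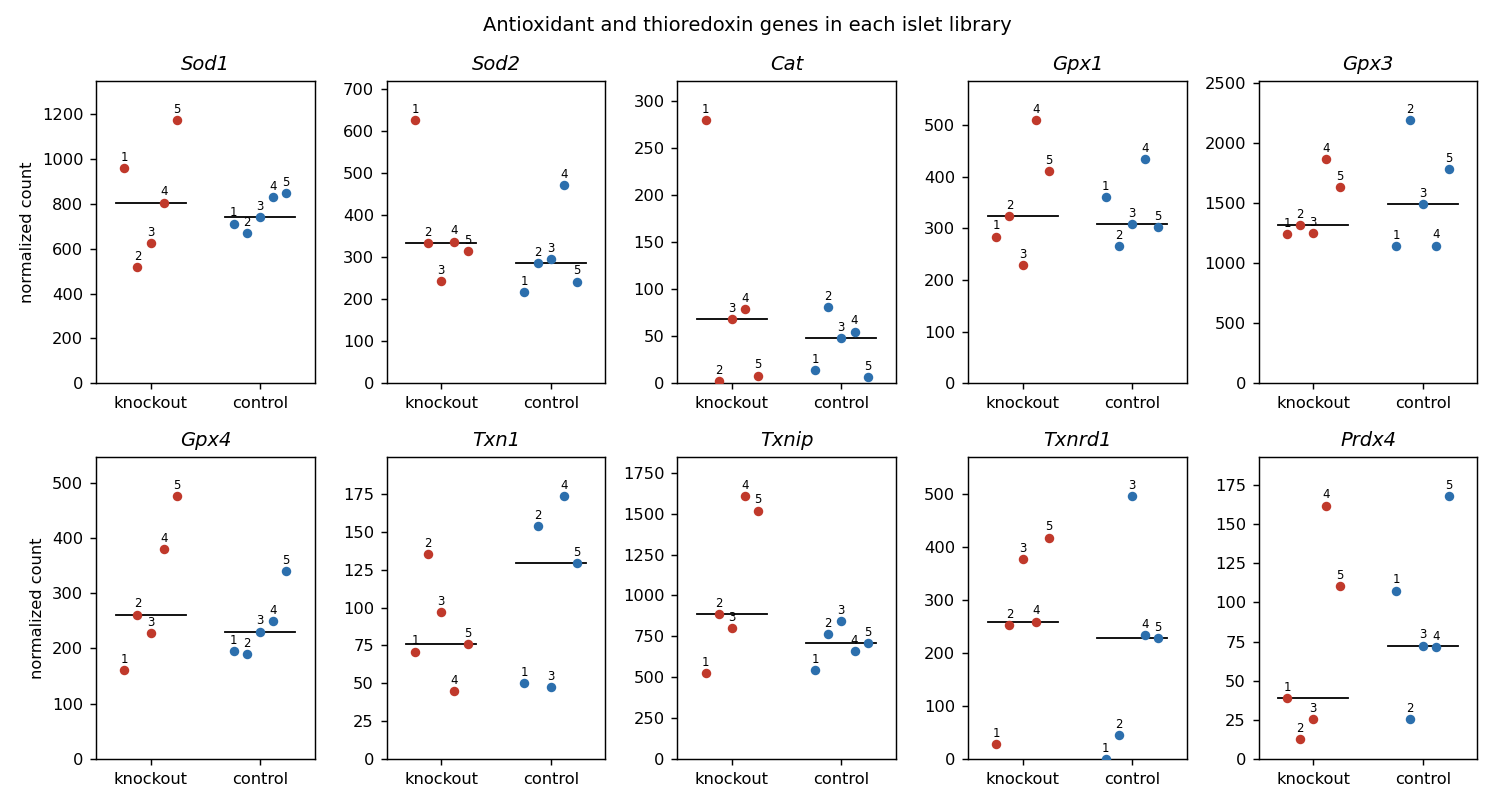
Normalized count of each of the 10 genes in every library, knockouts in red on the left and controls in blue on the right of each panel, with the library's number above its point and a bar at the group median. The groups overlap in all 10 panels, and each vertical axis starts at 0.

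**Figure D3:**
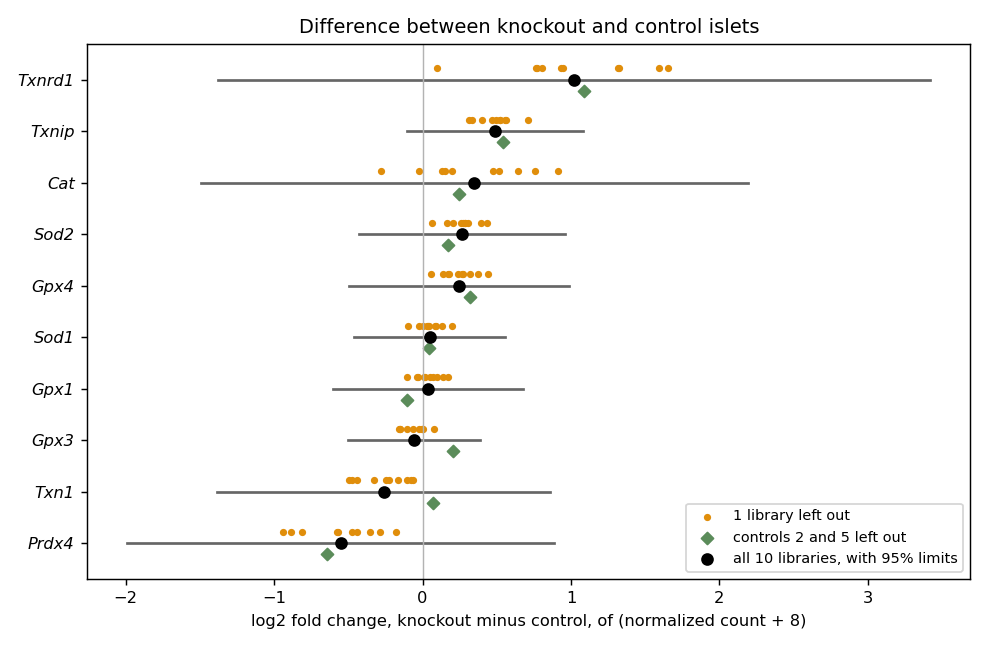
Log2 fold change of each gene, knockout minus control, on the log2(normalized count + 8) scale. Black points and grey lines are the values and 95% limits of all 10 libraries, small orange points the values with 1 library left out, and green diamonds those without controls 2 and 5. Every line crosses 0, and the limits of Txnrd1, Cat and Prdx4 are the widest of the 10.

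Neither superoxide dismutase gene passed the test. Positions are of GENCODE M21 on GRCm38, which may differ from the build the authors used. Sod1 (chromosome 16, 90220754 to 90226329, plus strand), the copper and zinc enzyme of the cytosol, had normalized counts of 962, 517, 627, 807 and 1173 in knockouts 1 to 5, against 713, 669, 740.4, 831 and 849 in controls 1 to 5. Its means were 817 ± 262 in knockouts and 760.4 ± 77.0 in controls (SD, n = 5 each), and knockouts 1 and 5 lay above all controls and knockouts 2 and 3 below them all. The difference was 0.049 ± 0.24 (SE) on the log2 scale, with 95% limits of -0.46 to 0.56 and an adjusted p of 0.992 by limma. It turned to -0.024 without knockout 1 and to -0.095 without knockout 5. Sod1 overlaps Scaf4 on the other strand, and the sources used here do not say whether counting used strand.

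Sod2 (chromosome 17, 13006846 to 13040063, plus strand), the manganese enzyme of the mitochondrial matrix and a gene induced by inflammatory cytokines, was at 625, 334, 243, 336 and 314 in knockouts 1 to 5, against 217, 285, 295, 471 and 242 in controls 1 to 5. Knockout 1 stood alone at the top, and the other 4 knockouts lay within the range of the controls. The means were 371 ± 147 in knockouts and 302 ± 99.9 in controls (SD, n = 5 each), a log2 difference of 0.27 ± 0.33 (SE, adjusted p = 0.966 by limma, exact permutation p = 0.389). Without knockout 1 the difference was 0.064.

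Catalase had the widest spread of the 5 peroxide-removing genes. Cat (chromosome 2, 103453849 to 103485160, minus strand), whose enzyme splits hydrogen peroxide in peroxisomes, was listed at 279, 2.46, 67.8, 78.5 and 8.06 in knockouts 1 to 5, against 13.5, 80.5, 47.9, 54.7 and 6.13 in controls 1 to 5. Knockouts 2 and 5 and controls 1 and 5 were low, knockout 1 was high, and the rest lay between 47.9 and 80.5. In knockout 2 the value was 1.76 times that library's commonest low value, so it rests on very few reads. The log2 difference was 0.35 ± 0.88 (SE), with limits of -1.50 to 2.19, or 0.355-fold to 4.57-fold in knockouts over controls, and an adjusted p of 0.978 by limma. It was -0.28 without knockout 1, -0.021 without control 5 and 0.91 without knockout 2. Its spread within groups, 1.59 on the log2 scale, compares with a median of 0.84 over all tested genes.

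The glutathione peroxidase genes were steadier. Gpx1 (chromosome 9, 108338903 to 108340343, plus strand), the general cytosolic and mitochondrial selenoenzyme, had normalized counts of 284, 323, 229, 508 and 410.1 in knockouts 1 to 5, against 360.3, 265, 307, 433 and 302 in controls 1 to 5. The ranges of the groups overlapped almost wholly, with means of 351 ± 110.2 in knockouts and 333 ± 65.4 in controls (SD, n = 5 each) and a log2 difference of 0.038 ± 0.31 (SE, limits -0.60 to 0.68, adjusted p = 0.996 by limma). Its direction turned without controls 2 and 5 (-0.10) and without control 2, knockout 4 or knockout 5 (-0.038, -0.11 and -0.031). Per kilobase, the ratio of Gpx1 to Cat was 1.84, 11.7 and 238 (lowest, median and highest) in knockouts and 5.96, 14.4 and 89.2 in controls, so Gpx1 was above Cat in all 10 libraries.

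Gpx3 (chromosome 11, 54902453 to 54910377, plus strand) was at 1239.8, 1315, 1247, 1861 and 1634 in knockouts 1 to 5, against 1140.2, 2185, 1489, 1145 and 1784 in controls 1 to 5. Controls 2 and 5 held 2 of the 3 highest values, and the lowest 2 were also controls. The means were 1459 ± 277 in knockouts and 1549 ± 446 in controls (SD, n = 5 each), and the difference of -0.058 ± 0.21 on the log2 scale (SE, adjusted p = 0.987 by limma) had limits of -0.50 to 0.38. It was 0.077 without control 2, 0.20 without controls 2 and 5 and -0.28 with the acinar level of each library in the model.

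Gpx4 (chromosome 10, 80047166 to 80056439, plus strand), which reduces lipid hydroperoxides in membranes and holds ferroptosis in check, was at 160.3, 261, 228, 379 and 475 in knockouts 1 to 5, against 195, 190.2, 230.4, 249 and 339.8 in controls 1 to 5. Knockouts 4 and 5 lay above every control and knockout 1 below every control. The means were 301 ± 126 in knockouts and 241 ± 60.6 in controls (SD, n = 5 each), with a log2 difference of 0.24 ± 0.35 (SE, limits -0.50 to 0.99, adjusted p = 0.969 by limma, exact permutation p = 0.460). A processed pseudogene of Gpx4 is annotated, so its reads may be shared with that copy. The difference ranged from 0.059 without knockout 5 to 0.44 without knockout 1.

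Prdx4 (chromosome X, 155323918 to 155340754, minus strand) encodes the peroxiredoxin of the endoplasmic reticulum, which uses peroxide made during disulfide formation to fold secreted proteins. Its normalized counts were 38.9, 12.5, 25.2, 162 and 110.5 in knockouts 1 to 5, against 108, 25.5, 72.4, 71.5 and 168 in controls 1 to 5. Knockouts 1, 2 and 3 and control 2 were low, and knockouts 4 and 5 and controls 1 and 5 were high. The means were 69.8 ± 63.9 in knockouts and 89.0 ± 52.9 in controls (SD, n = 5 each), and the log2 difference was -0.55 ± 0.69 (SE, limits -1.99 to 0.89, adjusted p = 0.966 by limma, exact permutation p = 0.413). It ranged from -0.94 without knockout 4 to -0.18 without knockout 2. Acinar cells also make secreted proteins in bulk. With the acinar level of each library in the model the Prdx4 difference was -0.31 ± 0.80 (SE), and their part in it was not tested.

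In the thioredoxin system, neither the carrier nor its reductase nor its inhibitor passed the test. Txn1 (chromosome 4, 57943373 to 57956411, minus strand), the cytosolic thioredoxin that hands electrons to peroxiredoxins, was at 71.0, 136, 97.0, 44.7 and 76.0 in knockouts 1 to 5, against 50.3, 154, 47.4, 174 and 129 in controls 1 to 5. Controls 1 and 3 were low and controls 2, 4 and 5 high, while knockout 4 lay below every control and the other knockouts inside the range of the controls. The means were 84.8 ± 33.9 in knockouts and 111 ± 58.8 in controls (SD, n = 5 each), a log2 difference of -0.26 ± 0.53 (SE, limits -1.38 to 0.86, adjusted p = 0.978 by limma). Without controls 2 and 5 it was 0.071, without control 3 -0.49 and without control 4 -0.066. A pseudogene of thioredoxin is annotated, and its reads may be shared.

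Txnrd1 (chromosome 10, 82833951 to 82897712, plus strand), the selenoenzyme that recharges thioredoxin with NADPH and carries the second sequence shown above, was listed at 28.4, 251, 377, 259 and 417 in knockouts 1 to 5, against 0, 44.2, 495, 233 and 228 in controls 1 to 5. Knockout 1, control 1 and control 2 were low and the other 7 libraries lay between 228 and 495. The log2 difference of 1.02 ± 1.09 (SE, adjusted p = 0.964 by limma) was the largest of the 10 in size, but its limits were -1.38 to 3.42. It rested on control 1, where the gene is listed at 0, and was 0.097 without that library and 1.65 without knockout 1. The gene's within-group spread of 1.97 on the log2 scale exceeded that of 97.9% of tested genes.

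Txnip (chromosome 3, 96557957 to 96561883, plus strand) had the smallest p of the 10 genes. Its normalized counts were 523, 887, 799, 1608 and 1519.8 in knockouts 1 to 5, against 543, 766, 845, 662 and 707 in controls 1 to 5. Knockouts 4 and 5 stood apart at the top, knockout 2 also lay above every control, knockout 3 was among the controls and knockout 1 was below them all. The means were 1067 ± 474 in knockouts and 705 ± 113 in controls (SD, n = 5 each). The log2 difference was 0.49 ± 0.28 (SE), a 1.40-fold level with limits of 0.929 to 2.12, and an unadjusted p of 0.102 and adjusted p of 0.942 by limma. By an exact 2-sided permutation test of the means, p was 0.183 (0.941 adjusted over all tested genes), with 0.00794 the lowest that 5 against 5 can give. Txnip is overlapped by the antisense gene Gm15441, so reads of the pair may be mixed.

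The difference in Txnip kept its sign in all 21 alternatives and passed the adjusted threshold in none of them. It was 0.31 without knockout 4, 0.33 without knockout 5 and 0.71 without knockout 1. Without knockout 1 the unadjusted p was 0.0113 and the adjusted p 0.892 by limma. The lowest adjusted p of the 21 was 0.880 by limma, without knockout 3. The authors' deposited table gives Txnip a log2 fold change of 0.60 with a p-value of 0.0610 and an adjusted p-value of 0.782. The coefficient of variation of Txnip was 44.4% in knockouts and 16.1% in controls. The difference in spread was not tested.

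Inhibitor and carrier were also set against each other within libraries. Per kilobase, the ratio of Txnip to Txn1 was 2.48, 2.20, 2.77, 12.1 and 6.73 in knockouts 1 to 5 and 3.63, 1.67, 6.00, 1.28 and 1.84 in controls 1 to 5. Knockout 4 had the highest ratio, from a high Txnip and the lowest Txn1 of the 10 libraries, and the ratio of control 3 was close to that of knockout 5. The ratio of both superoxide dismutase genes to Cat and Gpx1 together, the makers of peroxide over 2 of its removers, was 0.619, 0.987 and 1.14 in knockouts (lowest, median, highest) and 0.789, 0.918 and 1.12 in controls. Per kilobase of principal transcript these ratios were 2.61 to 4.89 in knockouts and 3.24 to 4.81 in controls, so the groups overlapped on either scale.

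Among the 45 pairs of these genes, Txnip and Gpx4 were the most alike across the 10 libraries, with Pearson's r of 0.83 and Spearman's rho of 0.72 on the log2 scale, given as a description of libraries that share depth and preparation. Both genes were highest in knockouts 4 and 5, and without these r was 0.50 over 8 libraries, so the likeness rests largely on them. Over all 11709 other tested genes, the 3 most like Txnip were RP23-6P18.1, Zfr and Plaur (r = 0.96, 0.93 and 0.91, rho = 0.85, 0.92 and 0.88). They are the top of a ranking of many genes over 10 libraries, given as a description. RP23-6P18.1 was at 61.2 and 73.9 in knockouts 4 and 5 and at most 16.9 elsewhere. Plaur was at 61.2 and 89.7 there and at most 22.3 elsewhere, and both are listed at 0 in some libraries. Zfr, which encodes a zinc finger RNA-binding protein, was at 964, 1735, 1617, 2519 and 2359 in knockouts 1 to 5, against 1401, 1459, 1657, 1310.4 and 1697 in controls 1 to 5. The 3 most like Prdx4 were Elavl4, Nbn and A330044P14Rik, with r = 0.92, 0.89 and 0.88 over the same 10 libraries.

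**Figure D4:**
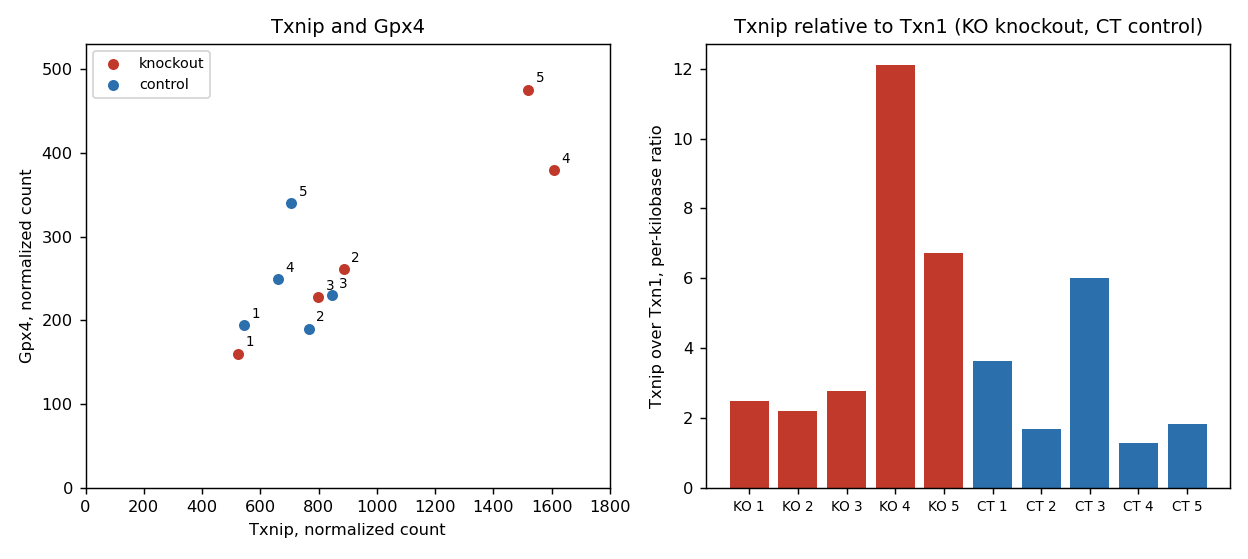
Left, normalized counts of Txnip and Gpx4 in each library, numbered within its group. Right, the ratio of Txnip to Txn1 per kilobase of annotated exons in each library, 12.1 in knockout 4 and 1.28 in control 4 at the extremes.

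The wider redox genes were read from 10 lists of 83 genes, of which 78 were in the table and 66 were tested, and 0 passed the adjusted threshold in either direction by limma. At an unadjusted p under 0.05 by limma, 1 of the 66 was higher and 2 were lower. Over all tested genes 2.36% were higher and 2.66% lower, so these counts are close to that share. The median log2 difference of the 66 was -0.08, against -0.03 over all tested genes. Peroxiredoxins and their repair genes had 2 of 9 values positive and 7 negative, median -0.31. Sesn3, a sestrin that restrains growth signalling under stress, was at 99.4, 82.4, 157, 205 and 179 in knockouts 1 to 5, against 354, 279, 269, 175 and 302 in controls 1 to 5. Control 4 lay inside the knockouts' range and the other 4 controls lay above it, for a log2 difference of -0.93 ± 0.38 (SE, unadjusted p = 0.023, adjusted p = 0.942 by limma). Prdx5, a peroxiredoxin of mitochondria, peroxisomes and cytosol, averaged 173 ± 48.9 in knockouts and 270.5 ± 98.3 in controls (SD, n = 5 each).

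Genes around thioredoxin and glutathione gave no call either. In the thioredoxin and glutaredoxin list (11 tested, 5 positive and 6 negative) Nxn, encoding nucleoredoxin, was at 0.85 ± 0.69 and Txnrd2, the mitochondrial reductase, at -0.94 ± 0.67 on the log2 scale (SE). In glutathione synthesis and recycling (11 tested, 5 positive and 6 negative) Chac1, whose enzyme degrades glutathione, averaged 343 ± 125 in knockouts and 504 ± 134 in controls (SD, n = 5 each). G6pdx, the first enzyme of the NADPH-making pentose phosphate pathway, averaged 66.7 ± 34.8 in knockouts and 126 ± 42.8 in controls (SD, n = 5 each), with unadjusted p of 0.0861 for Chac1 and 0.0905 for G6pdx by limma. NRF2, the oxidant-sensing transcription factor encoded by Nfe2l2, was at -0.13 ± 0.37 and its inhibitor gene Keap1 at -0.10 ± 0.33. In their list (9 tested, 2 positive and 7 negative) Gstm1, a glutathione transferase gene, was at 0.18 ± 0.38 and Hmox1, the inducible heme oxygenase, at -0.23 ± 0.60.

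Genes that act on Txnip, and its relatives among the arrestins, did not pass. Mlxipl, which encodes ChREBP, was at 1340.0, 1025, 1533, 1921 and 1047 in knockouts 1 to 5, against 1506, 1994, 1438, 1822 and 2093 in controls 1 to 5. Knockouts 2, 5 and 1 lay below every control, while knockout 4 was above 3 of the 5, and the log2 difference was -0.39 ± 0.20 (SE, unadjusted p = 0.0708, adjusted p = 0.942 by limma). Arrdc4, another arrestin-domain gene that ChREBP activates, was at 112, 137, 112, 272 and 80.8 in knockouts 1 to 5, against 42.4, 97.7, 49.7, 167 and 321 in controls 1 to 5. Its highest value was in control 5 and its next highest in knockout 4, for a log2 difference of 0.31 ± 0.55. Arrdc1 was at 0.89 ± 0.74, and the list had 5 of 6 values positive and 1 negative.

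Of the other lists, ER oxidative folding (8 tested, 3 positive and 5 negative) held Erp44, a retention factor for folding oxidases, at 600.5 ± 193 in knockouts and 937 ± 317 in controls (SD, n = 5 each), a log2 difference of -0.64 ± 0.28 (SE, unadjusted p = 0.0338, adjusted p = 0.942 by limma). Ero1lb, the oxidase that makes disulfides in β cells, averaged 4989.9 ± 418 in knockouts and 5919 ± 1184 in controls (SD, n = 5 each). Among genes of selenoprotein synthesis and other selenoproteins (9 tested, 4 positive and 5 negative), Sephs1, a relative of selenophosphate synthetase, was at 73.6, 45.1, 179.5, 97.9 and 168 in knockouts 1 to 5, against 46.4, 30.1, 139, 4.54 and 12.0 in controls 1 to 5, a log2 difference of 1.53 ± 0.70 (SE, unadjusted p = 0.0429, adjusted p = 0.942 by limma). Controls 1 and 3 lay within the knockouts' range, and controls 2, 4 and 5 below it. Selk, a selenoprotein gene of the ER membrane, was at -0.54 ± 0.28. Of the oxidant producers (3 tested), Maob, a mitochondrial monoamine oxidase gene, was at -0.42 ± 0.27 and Cybb, the phagocyte oxidase, at -1.20 ± 0.82.

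Glrx, the cytosolic glutaredoxin gene, was the only wider redox gene with an adjusted p-value under 0.05 in the authors' deposited table, 1 of 74, where 0.136% of all genes were called. That table gives it a log2 fold change of 22.48 and an adjusted p-value of 1.02e-15. Its values were 141 in knockout 2 and 99.7 in knockout 3, and it is listed at 0 in the other 3 knockouts and in all 5 controls. It had at least 10 normalized counts in 2 libraries and so was not in the main fit. Without the filter on low values, 0 of 17945 genes passed the adjusted threshold by limma. Of the 19 genes called in the authors' deposited table, 10 were above 0 in 5 or fewer libraries.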

How the data were processed

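Islet RNA was measured in 10 libraries. Per the labels' protocols, RNA was depleted of ribosomal RNA and converted with a stranded, random-primed kit. STAR 2.4.0.1, HTSeq and DESeq2 were used, per the submitters' processing notes. Their settings, the genome build and the annotation are not given in the sources used here. Normalized counts per gene were deposited by the authors, which is a signal scaled to be comparable between libraries. From 25.0% to 37.2% of a library's nonzero values were whole multiples of its commonest low value (within 0.01 of a multiple), so whole reads could not be recovered and limma took the place of the count model first planned. The same deposited table gives log2 fold changes, a test score and p-values of the authors' own comparison, quoted only where it is named.

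A row without a gene name, holding 0.00774% to 0.0251% of the totals, was not used. The values of 11711 genes with at least 10 normalized counts in at least 5 libraries were taken as log2(value + 8) and fitted with limma 3.58.1 under R 4.3.3. Variances followed a trend on the mean with robust estimation, and p-values were adjusted by Benjamini-Hochberg over all tested genes, with 0.05 as threshold. Folds on this scale understate the change of low genes. All 10 genes passed that filter, Cat with 7 and Txnrd1 with 9 libraries at or above 10. Exact permutation tests used every arrangement of the libraries. GENCODE M21 (GRCm38) gave lengths and positions for 95.1% of symbols. Normalized totals were 5534386 to 7358040, and the depth in reads is unknown. The fit was tested first on simulated data with normally distributed noise. Changes were added there only to genes of higher level, so the simulation does not speak for low genes such as Cat. The genes, lists and tests were chosen with earlier results of these data known. Named among the wider genes are the 2 with the smallest p of each list, Nfe2l2, Keap1, Mlxipl and Arrdc4. Glrx was named after its values were seen. Other scalings and filters, pseudocounts of 1 and 32, other variance estimates, quality weights, an acinar covariate, omitted libraries and other gene lengths were tried. Python 3.11.15, scipy 1.17.1, pandas 2.3.3 and matplotlib 3.10.9 were used.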

Additional observations from a re-analysis of the deposited data

Results flagged for a closer look

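Of 20 groups of 5 libraries examined (10 genes in 2 groups), 2 held a library far from the rest by Dixon's ratio. Chance flags about 1 in 20 if the values are normally distributed. The ratio was taken on normalized counts, and not on the log2 scale of the fit, where high values stand out less. Sod2 in knockout 1 was 625 normalized counts, with a gap to the next knockout of 0.756 of the group's range. Cat in knockout 1 was 279 normalized counts, with a gap of 0.725 of the range. Both are in knockout 1, the shallowest library by its commonest low value.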

How the results depend on the processing

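None of the 10 genes passed the adjusted threshold under any of the 21 alternatives, and none of the wider lists held a gene that did. Of 210 recomputed differences, 192 kept their sign and 18 turned. With quality weights, Sod1 was -0.069, Cat -0.20 and Gpx1 -0.071. With the acinar covariate Cat was -0.033, and Txnrd1 was 1.73, against 1.02 in the main fit. Without controls 2 and 5, Gpx1 was -0.10, Gpx3 0.20 and Txn1 0.071, and without controls 2, 3 and 5, Gpx1 was -0.22 and Gpx3 0.33, with 0.70 for Txnip, 0.34 for Gpx4, 0.026 for Sod1, 0.13 for Sod2, 0.45 for Cat, -0.23 for Txn1, 2.26 for Txnrd1 and -0.73 for Prdx4. With single libraries left out, differences ranged from -0.095 to 0.20 for Sod1, -0.28 to 0.91 for Cat, -0.11 to 0.17 for Gpx1 and -0.16 to 0.077 for Gpx3. The cause was not tested.

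Over all genes, 0 passed with all libraries by limma (276 higher and 311 lower at an unadjusted p under 0.05), 1 (Commd8) without trend and robust estimates, 1 (Esr1) without controls 2 and 5, and 3 (Esr1, Herc4 and Amy2a1) without controls 2, 3 and 5. With single libraries left out the number ran from 0 to 1, Ppp4r1l-ps without control 1. In the order by level per kilobase 1 neighbour pair differed, or 3 with the longest or the principal transcript as length, and 1 to 3 with single libraries left out. The limits were widest for Txnrd1, Cat and Prdx4, so smaller changes in these were not detectable, and their dependence on depth was not tested. Cat averaged 15.3 per kilobase without knockout 1, an alternative added after seeing the data. No paired analysis was possible because the labels give no replicate numbers shared between the groups.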

Other observations

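The genes of this section were picked from the wider lists after their values were seen. Beside the 10 genes, the islets held other peroxide-removing and disulfide-forming transcripts, given here as means of 10 libraries in normalized counts per kilobase of annotated exons. Prdx1 stood at 175, Prdx2 at 127, Prdx6 at 112, Prdx5 at 104 and Prdx3 at 76.4, each above Cat at 24.4. Srxn1, which repairs overoxidised peroxiredoxins, was at 168. The disulfide isomerase genes P4hb and Pdia3 reached 2557 and 2314, and Ero1lb 819.8.

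Several related genes had low or zero values in many libraries, and a listed 0 need not mean that a gene is off, since Txnrd1 is also listed at 0 in control 1. Sod3, the extracellular superoxide dismutase, reached at most 28.5 normalized counts and is listed at 0 in 3 libraries. Ccs, the copper chaperone of SOD1, is listed at 0 in 8 libraries with a highest value of 33.2, and Gpx2, the gut-type glutathione peroxidase, in 9 with a highest of 65.9. Gpx7 is listed at 0 in 6, with a highest value of 45.3, and Nqo1, a textbook NRF2 target, in 5, with a highest of 39.5. These genes were below the filter and were not in the main fit. Without the filter, 0 of 17945 genes passed the adjusted threshold by limma.

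Nnt encodes the mitochondrial transhydrogenase that makes NADPH for glutathione and thioredoxin recycling, and is known to be truncated in the C57BL/6J substrain. Its normalized counts were 119.7, 133, 223, 297 and 53.3 in knockouts 1 to 5, against 1.87, 138, 95.2, 191 and 86.6 in controls 1 to 5. The labels give the strain as C57BL/6 without a substrain, and exons were not analysed here.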
